A study of Mus musculus with 12 samples.

Results

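The Rbm genes are a set of mouse genes named for the RNA-binding motif, and they were taken here as every row of the count table whose symbol starts with Rbm, apart from the Y-linked Rbmy repeats. The rule used names only and no measured value. It found 48 of the 24062 symbols in the table. Of these, 42 had enough counts to be tested, among 15440 genes tested in all. Most of the encoded proteins carry at least one RNA recognition motif, a small fold that lies across a short stretch of single-stranded RNA. The name does not mark a single pathway. It covers subunits of the spliceosome, the machine that removes introns, and also proteins that choose splice sites, that deposit m6A (a methyl mark on adenosine), that pass nuclear RNA to the exosome for decay, and that serve in ribosome synthesis. Neurons splice long transcripts in many forms, and proteins of this type are abundant in brain.

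RNA was taken from the cortex of mice aged 9 months, with 1 library for each of 3 mice in each of 4 groups. WT mice had 2 intact Tia1 alleles and no transgene, while PS19 mice had the same Tia1 genotype and a transgene for human tau with the P301S mutation, driven by the mouse prion promoter and so not limited to cortex. Tia1+/- mice had 1 null allele of Tia1, which encodes an RNA-binding protein of stress granules, and no transgene, and P301S Tia1+/- mice carried both changes. The null allele came from a line backcrossed to C57BL/6J, the transgene from the PS19 line of mixed B6;C3 origin, and crosses between them gave the PS19 and P301S Tia1+/- littermates. No agent was given. The titles and the genotype entries give the Tia1+/- and P301S Tia1+/- groups the opposite way round, and titles, which also head the columns of the count table, were followed. If the entries held instead, the levels of Tia1+/- and P301S Tia1+/- and their comparisons with WT would change places. The difference between these groups would turn sign. The comparison with PS19 and the interaction would be other contrasts, which are not given here. The human transgene has no row of its own in the table, so its expression could not be checked. The counts summed to between 11978962 and 19146484 per library, and the Rbm rows together took between 0.1659% of these (Tia1+/- replicate 1) and 0.2361% (WT replicate 1). CPM below are counts per 1000000 after TMM scaling, and CPM per kb divides by the exon length of the gene. In bulk cortex, fewer cells of a type and less RNA per cell cannot be told apart. The p-values rest on the spread between mice within groups, estimated jointly over all 12 libraries unless fewer are named.

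Several features of the libraries stand beside every result. Tia1 itself was at 93.8, 76.8 and 75.4 CPM in WT, 77.9, 70.8 and 71.9 in PS19, 61.4, 62.8 and 79.8 in Tia1+/-, and 72.6, 73.5 and 77.8 in P301S Tia1+/-, so the groups overlapped at its locus. Mouse Mapt, the endogenous tau gene, was at 256, 369 and 413 CPM in WT, 439, 462 and 457 in PS19, 502, 455 and 344 in Tia1+/-, and 336, 357 and 353 in P301S Tia1+/-. Prnp, whose promoter drives the transgene, was at 1334 to 1879 CPM in WT, 2018 to 2158 in PS19, 996 to 1922 in Tia1+/- and 1404 to 1535 in P301S Tia1+/-. Both genes were above WT in PS19, while P301S Tia1+/- lay within the range of WT and below PS19, so neither gene separates the groups titled with the transgene from those without it, and neither settles which of the 2 fields is right. Xist, which is transcribed from the inactive X of female cells, had 0 to 13 counts in the WT and PS19 libraries and 3304 to 5693 in the Tia1+/- and P301S Tia1+/- libraries, where 4 Y-linked genes had 0 to 3 counts each. The Tia1 genotype and this sex-linked difference cannot be told apart in any comparison across it, although the study's methods name male mice. All 6 markers of cortical excitatory neurons had counts in every library, but at uneven levels. Their summed level was 636.9 to 1059 CPM in WT and 994.7 to 1090 in PS19. It was 431.8 to 1270 in Tia1+/- and 771.3 to 923.3 in P301S Tia1+/-. Tia1+/- replicate 3 was lowest and WT replicate 1 next. For 6 inhibitory neuron markers the sum was 892.9 to 1710 CPM in WT and 685.3 to 805.1 in PS19. It was 719.1 to 1674 in Tia1+/- and 1287 to 1491 in P301S Tia1+/-. The summed level of 12 olfactory bulb markers was 66.01 to 1265 CPM in WT, with the highest value in replicate 1, 29.93 to 42.59 in PS19, 32.36 to 180.2 in Tia1+/- and 804.9 to 946 in P301S Tia1+/-. Of the 12, Stoml3, Tbx21 and Scgn were at 0 in some libraries. The summed level of 10 striatal markers was 2670 CPM in Tia1+/- replicate 3 and 216 to 451.1 in the other libraries. Values are therefore also given without WT replicate 1 and Tia1+/- replicate 3 where they moved a result.

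Within the family, levels per length ranged from 0.0843 CPM per kb for Rbm47 to 38.9 for Rbm39, with a median of 6.32 over the 42 genes. Rbm39, a splicing factor related to U2AF that also acts as a transcriptional coactivator, was the highest. Next came Rbmxl1 at 30.7 CPM per kb, an autosomal copy of the X-linked Rbmx, then the cold-inducible Rbm3 at 24.1 and Rbm17, which acts at the 3′ splice site, at 23.3. The 4 lowest tested genes were Rbm47, which assists mRNA editing, Rbm38 at 0.336, a regulator of mRNA stability, Rbm46 at 0.632, known for its role in germ cells, and Rbms2 at 1.53. The standard deviation between mice of one group was 4.3% of the mean for Rbm17, the steadiest member, and 91.3% for Rbm47, with a median of 12.4%. Neighbours in the order of levels could lie within their spread, as did Rbm3 at 30.2 ± 4.31 and Rbm17 at 26.9 ± 0.82 CPM per kb in WT (SD, n = 3).

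**Figure D1:**
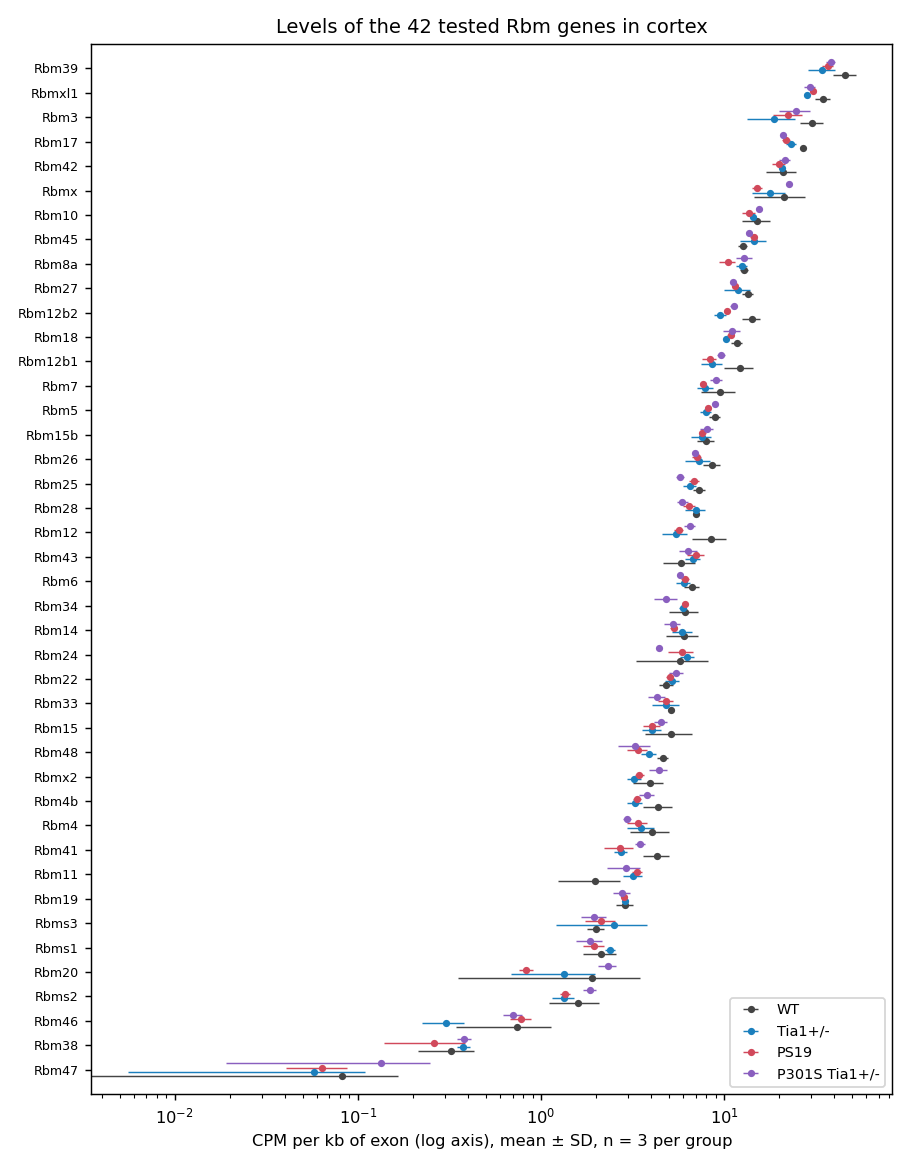
Level of each of the 42 tested Rbm genes as CPM per kb of exon on a log axis, with the mean of each group as a point and the SD over 3 mice as a line. Rbm39 is highest at 38.9 CPM per kb over all libraries and Rbm47 lowest at 0.0843, and for most genes the 4 group means lie close together against the range of the family.

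Of the 6 genes that were not tested, Rbm44, which is known from germ cells, Rbm46os and Rbm3os, which are antisense genes, and the readthrough gene Rbm14-rbm4 had few counts. Rbm3os reached 1.04 CPM in PS19 replicate 2 and was below that elsewhere. Rbmxl2, an intronless copy of Rbmx known from male germ cells, and the Y-linked Rbm31y had no count in any library, which allows up to 0.156 to 0.254 CPM per library (3 counts, counting error only).

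The first question was whether tau pathology moved the family. In PS19 mice 34 of the 42 Rbm genes had a log2 fold change below 0 against WT, with a median of -0.18, beside a median of -0.0066 and 51% below 0 over all genes tested. At an adjusted p under 0.05, edgeR's quasi-likelihood test called 0 members, and 0% of all genes were called. At an unadjusted p under 0.05, 13 members (31%) were lower and 1 was higher (2.38%), against 9.73% and 6.56% of all genes. DESeq2 called 5 members, Rbm12, Rbm12b1, Rbm12b2, Rbm17 and Rbm41, each lower in PS19 (11.9% of members), and 2.77% of all genes. Olfactory bulb markers were lower in every PS19 library than in every WT library, so bulb level and genotype cannot be told apart here. With the bulb marker level as a covariate, 24 of the 42 members lay below 0, with a median of -0.039. In that fit 5 members had an unadjusted p under 0.05 by edgeR, and 0 members and 3.32% of all genes were called.

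In Tia1+/- mice without the transgene, 33 of the 42 genes lay below 0 against WT, with a median of -0.19 beside 0.0057 over all genes. edgeR called 1 member, Rbm12b2, which fell, and 0.712% of all genes in either direction. At an unadjusted p under 0.05, 11 members (26.2%) were lower and 1 was higher, against 10.5% and 8.63% of all genes, and DESeq2 called 4 members (9.76% of those with an adjusted p) and 6.59% of all genes.

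P301S Tia1+/- mice against WT gave 28 of 42 genes below 0, with a median of -0.19 beside 0.024 over all genes. Here too edgeR called 1 member, Rbm17, which fell, and 1.31% of all genes. At an unadjusted p under 0.05, 13 members (31%) were lower and 0 were higher, against 9.46% and 8.57%. DESeq2 called 3 members (7.5% of those with an adjusted p), a share near its 6.98% of all genes. These 3 comparisons share the WT libraries, so their counts are not independent of each other.

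The family was also compared in each library as the median of its members' deviations from the WT mean, in log2 units. It was 0.068, 0.044 and -0.10 in WT, -0.21, -0.19 and -0.15 in PS19, -0.22, -0.22 and -0.046 in Tia1+/- and -0.16, -0.17 and -0.12 in P301S Tia1+/-. All 3 PS19 and all 3 P301S Tia1+/- libraries were below the lowest WT library, while Tia1+/- replicate 3, the library with raised striatal markers, was above it. WT replicate 3 was nearer to the other groups than to the remaining WT libraries. Without WT replicate 1 the median log2 fold change of the members against WT was -0.11 for PS19, -0.089 for Tia1+/- and -0.073 for P301S Tia1+/-, so that library moved each value by more than 1.5 times. With both WT replicate 1 and Tia1+/- replicate 3 left out, the corresponding medians were -0.12, -0.18 and -0.11.

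**Figure D2:**
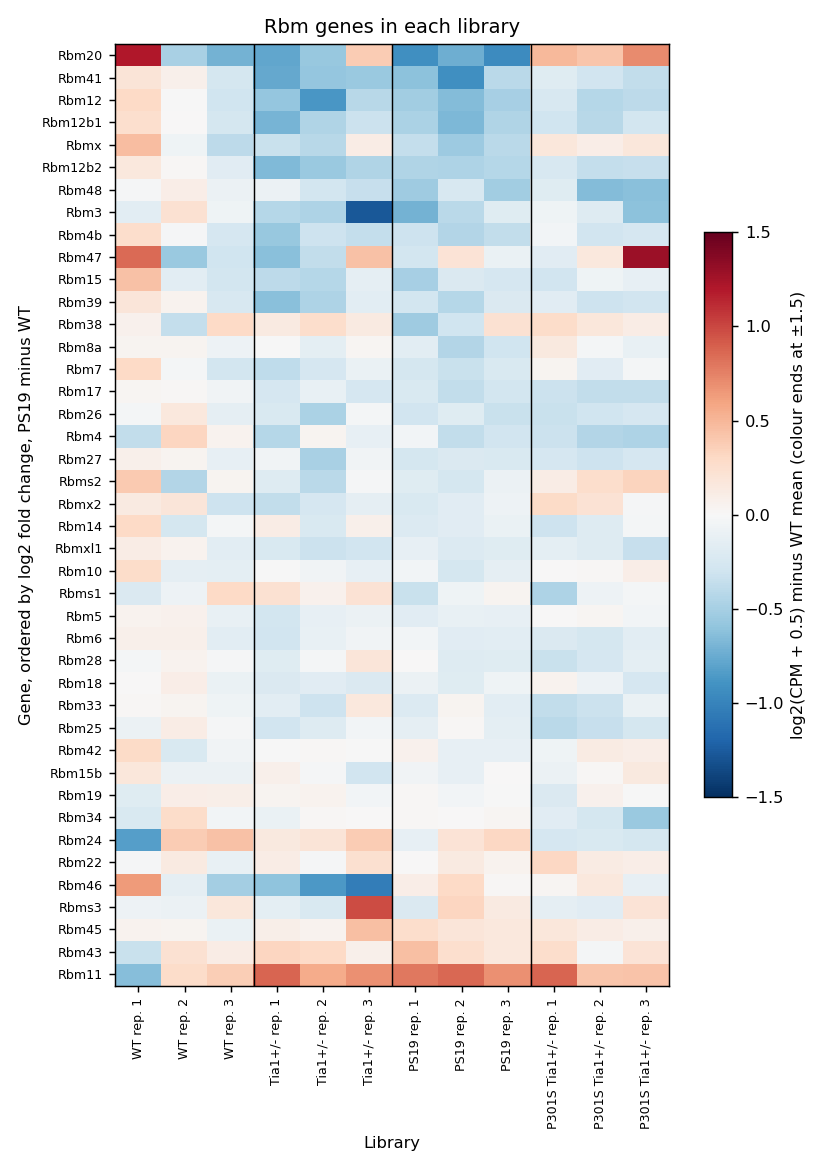
Level of each tested Rbm gene in each of the 12 libraries, as log2(CPM + 0.5) minus the WT mean, with rows ordered by the log2 fold change of PS19 minus WT and the colour scale ending at ±1.5. Blue rows prevail in the upper part of the Tia1+/- and PS19 columns, Rbm11 is red in all 9 libraries outside WT, and WT replicate 1 stands apart at Rbm20, Rbmx, Rbm24 and Rbm46.

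Among subunits of the spliceosome and the exon junction complex, 7 of 8 tested genes were below 0 in PS19 and 7 of 8 in Tia1+/- mice, and 4 of 8 in P301S Tia1+/- mice, against WT. Rbm17 (SPF45) joins early spliceosomes and takes part in choosing the 3′ splice site. It had 66.0, 65.6 and 62.4 CPM in WT, 55.0, 49.8 and 53.4 in PS19, 54.2, 59.8 and 54.1 in Tia1+/-, and 51.8, 49.7 and 50.1 in P301S Tia1+/-. Every library outside WT was below every WT library. The log2 fold change against WT was -0.36 ± 0.07 (SE) in P301S Tia1+/- mice (edgeR adjusted p = 0.0429), -0.29 ± 0.07 in PS19 (adjusted p = 0.159) and -0.21 ± 0.07 in Tia1+/- (adjusted p = 0.16). The call in P301S Tia1+/- mice was lost without WT replicate 2 (adjusted p = 0.149) or without P301S Tia1+/- replicate 1, 2 or 3 (0.0959, 0.176 and 0.166), without the filter on low counts (0.0759), with only the 2 groups fitted (0.152) and with the replicate number as a block (0.103), with a log2 fold change between -0.39 and -0.33 when any single library was left out.

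Rbm25, which works with the U1 particle at the 5′ splice site, was at 119, 137 and 125 CPM in WT and at 95.7, 99.6 and 106 in P301S Tia1+/- mice. These groups did not overlap, and the log2 fold change was -0.34 ± 0.09 (adjusted p = 0.0754 by edgeR). The PS19 values of 115, 128 and 115 CPM were above P301S Tia1+/- and overlapped WT. Rbm8a (Y14), a core subunit of the exon junction complex that splicing leaves on mRNA, had 37.1, 30.3 and 33.5 CPM in PS19 and 45.8, 40.5 and 38.2 in P301S Tia1+/-. The latter were all higher, with a log2 fold change of 0.30 ± 0.10 (edgeR adjusted p = 0.162). Rbm8a was at 42.5, 42.5 and 39.2 CPM in WT and 41.1, 37.2 and 42.3 in Tia1+/-. PS19 lay below WT without overlap (log2 fold change -0.30 ± 0.10, edgeR adjusted p = 0.213), while P301S Tia1+/- differed from WT by 0.0037 ± 0.10. Rbm39 had the largest counts of the family, with 361, 328 and 269 CPM in WT and 261, 235 and 272 in PS19, where replicate 3 of each group overlapped (log2 fold change -0.32 ± 0.13, edgeR adjusted p = 0.274, and -0.21 without WT replicate 1).

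Rbm12, Rbm12b1 and Rbm12b2, relatives with several RNA recognition motifs and little known function, had log2 fold changes below 0 against WT in all 3 other groups. Rbm12b2 had 54.5, 49.7 and 43.3 CPM in WT, 35.7, 35.5 and 36.3 in PS19, 30.7, 33 and 35.6 in Tia1+/-, and 41.2, 38.1 and 38.3 in P301S Tia1+/-. WT lay above every other library, and P301S Tia1+/- lay above both PS19 and Tia1+/-. Against WT the log2 fold change was -0.57 ± 0.10 in Tia1+/- (adjusted p = 0.0413, edgeR), -0.46 ± 0.09 in PS19 (0.157) and -0.33 ± 0.09 in P301S Tia1+/- (0.104).

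The Rbm12b2 call was lost when WT replicate 1 or 2 or Tia1+/- replicate 1, 2 or 3 was left out (adjusted p = 0.0829, 0.0926, 0.135, 0.131 and 0.0668), with only the 2 groups fitted (0.329) and with the replicate block (0.105). It held when WT replicate 3 was left out (0.0234), and when the pair WT replicate 1 and Tia1+/- replicate 3 was (0.0249). Rbm12b2 and Rbm12b1 are neighbours on chromosome 4 (GRCm38, chr4:12089439-12096243 and chr4:12140264-12146731) and share 1757 stretches of 50 bases, which is 53.6% and 58.2% of those in each, so reads may be split between them. Rbm12b1 alone was at 45.2, 38.1 and 31.5 CPM in WT, 27.1, 23.5 and 27.5 in PS19, 23.2, 27.7 and 30.1 in Tia1+/- and 30.6, 28.3 and 31.2 in P301S Tia1+/-, with every WT library above all others. The summed level of the pair was 99.7, 87.7 and 74.8 CPM in WT and 53.9, 60.6 and 65.7 in Tia1+/-, also without overlap. Rbm12b2 shares 8.33% of its exon bases with Tmem67 on the opposite strand, and the strand setting of the counting is not given in the sources used here. Tmem67 was at 16.3 ± 1.33 CPM in WT and 14.1 ± 1.84 in Tia1+/- (SD, n = 3).

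Rbm12 on chromosome 2 was at 68.9, 55.4 and 45.3 CPM in WT, 38.7, 35.3 and 39.4 in PS19, 37.1, 30.3 and 41.8 in Tia1+/- and 47.1, 41.2 and 42.4 in P301S Tia1+/-. WT replicate 3 fell inside the range of P301S Tia1+/- mice, and the Tia1+/- and PS19 libraries were all lower than WT. The log2 fold change was -0.63 ± 0.15 in Tia1+/- and -0.58 ± 0.15 in PS19 against WT (adjusted p = 0.0768 and 0.169 by edgeR). Part of its exon sequence is shared with Cpne1 (6.04% of bases), which was at 34.7 ± 2.57 CPM in WT and 40.2 ± 5.81 in Tia1+/-, the opposite order.

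Promoter windows were read for the 39 family genes found in the RefSeq promoter table on GRCm38.p6. Their 48 windows, each of 300 bases, had a median GC content of 58.8% and an observed over expected CpG ratio of 0.777, beside 52.7% and 0.384 over 32851 windows. The GC box GGGCGG was found on either strand in 21 windows (43.8%, beside 35.7% of all), and CCAAT in 19 (39.6%, beside 37.4%). The ETS motif CCGGAAG was in 7 (14.6% and 8.86%), the E-box CACGTG in 6 (12.5% and 7.15%) and TATAAA in 9 (18.8% and 13.6%). The 4 windows printed below belong to Rbm17, Rbm12 and Rbm41, whose levels were highest in WT, and to Rbm11, which ran against them. They are written 5′ to 3′ on the strand of the gene, and capitals mark matches to these motifs on either strand, of which 2 GC boxes overlap at Rbm12.
Rbm17, chr2:11603150-11603449, minus strand: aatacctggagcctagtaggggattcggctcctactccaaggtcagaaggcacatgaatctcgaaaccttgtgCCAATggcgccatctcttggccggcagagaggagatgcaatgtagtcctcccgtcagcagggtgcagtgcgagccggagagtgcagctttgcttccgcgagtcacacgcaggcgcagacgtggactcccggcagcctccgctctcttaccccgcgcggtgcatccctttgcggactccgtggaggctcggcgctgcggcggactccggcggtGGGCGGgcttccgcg
Rbm12, chr2:156111916-156112215, minus strand: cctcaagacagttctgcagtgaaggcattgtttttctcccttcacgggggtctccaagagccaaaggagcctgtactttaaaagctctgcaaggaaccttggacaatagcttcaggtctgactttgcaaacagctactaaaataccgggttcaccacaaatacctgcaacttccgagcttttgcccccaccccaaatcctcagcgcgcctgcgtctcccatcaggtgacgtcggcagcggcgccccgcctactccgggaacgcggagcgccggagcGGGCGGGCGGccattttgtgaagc
Rbm41, chrX:139998546-139998845, minus strand: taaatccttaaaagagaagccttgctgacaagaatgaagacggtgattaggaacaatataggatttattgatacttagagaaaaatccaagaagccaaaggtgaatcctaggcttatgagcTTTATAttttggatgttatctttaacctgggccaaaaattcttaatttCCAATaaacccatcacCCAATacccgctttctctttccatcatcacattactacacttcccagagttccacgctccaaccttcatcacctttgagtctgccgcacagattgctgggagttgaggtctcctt
Rbm11, chr16:75592641-75592940, plus strand: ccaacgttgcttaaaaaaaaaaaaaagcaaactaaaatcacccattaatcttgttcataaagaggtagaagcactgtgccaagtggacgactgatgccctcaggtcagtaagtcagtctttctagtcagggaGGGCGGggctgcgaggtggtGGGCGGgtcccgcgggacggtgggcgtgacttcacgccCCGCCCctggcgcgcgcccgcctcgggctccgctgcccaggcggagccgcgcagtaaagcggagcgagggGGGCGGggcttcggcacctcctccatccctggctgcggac
Rbm11 held 4 GC boxes at 62% GC, and Rbm41 held none at 40% GC, with 2 CCAAT boxes and 1 TATAAA match. These windows were chosen for their genes, so the contrast is a description of sequence only.

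The members that run against the family were led by Rbm11, a splicing regulator known from brain and testis. It had 3.12, 6.34 and 6.77 CPM in WT, 9.25, 9.77 and 8.61 in PS19, 9.87, 7.82 and 8.57 in Tia1+/- and 9.87, 7.02 and 7.08 in P301S Tia1+/-. The WT libraries were lower than all 9 others. Rbm11 was the only member above 0 with an unadjusted p under 0.05 in PS19 (log2 fold change 0.77 ± 0.26, edgeR adjusted p = 0.211) and in Tia1+/- mice (0.69 ± 0.26, adjusted p = 0.178), and neither passed adjustment. Without WT replicate 1 the values were 0.50 and 0.43, over 1.5 times smaller. In P301S Tia1+/- mice the difference from WT was 0.56 ± 0.26 (edgeR adjusted p = 0.28), and 0.29 without that library.

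Rbm45, which can form cytoplasmic inclusions, was at 22.4 to 24.9 CPM in WT, 26.7 to 28.9 in PS19, 24.9 to 33 in Tia1+/- and 25.2 to 27.1 in P301S Tia1+/-. Every library outside WT was above WT, the lowest of Tia1+/- only just (24.897 against 24.893 CPM). The log2 fold changes were 0.20 ± 0.11 in PS19, 0.21 ± 0.11 in Tia1+/- and 0.12 ± 0.11 in P301S Tia1+/- (edgeR adjusted p = 0.389, 0.328 and 0.621). The last was 0.060 without WT replicate 3. Rbm43 was at 11.8, 17.7 and 16.3 CPM in WT and 20.7, 18 and 16.8 in PS19, which overlapped (0.28 ± 0.16, adjusted p = 0.401 by edgeR), and the difference was 0.14 without WT replicate 1. Rbm22, a subunit of the catalytic core of the spliceosome that contacts the U6 RNA, had log2 fold changes of 0.065 ± 0.10 in PS19 and 0.18 ± 0.10 in P301S Tia1+/- mice against WT (adjusted p = 0.774 and 0.379 by edgeR).

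**Figure D3:**
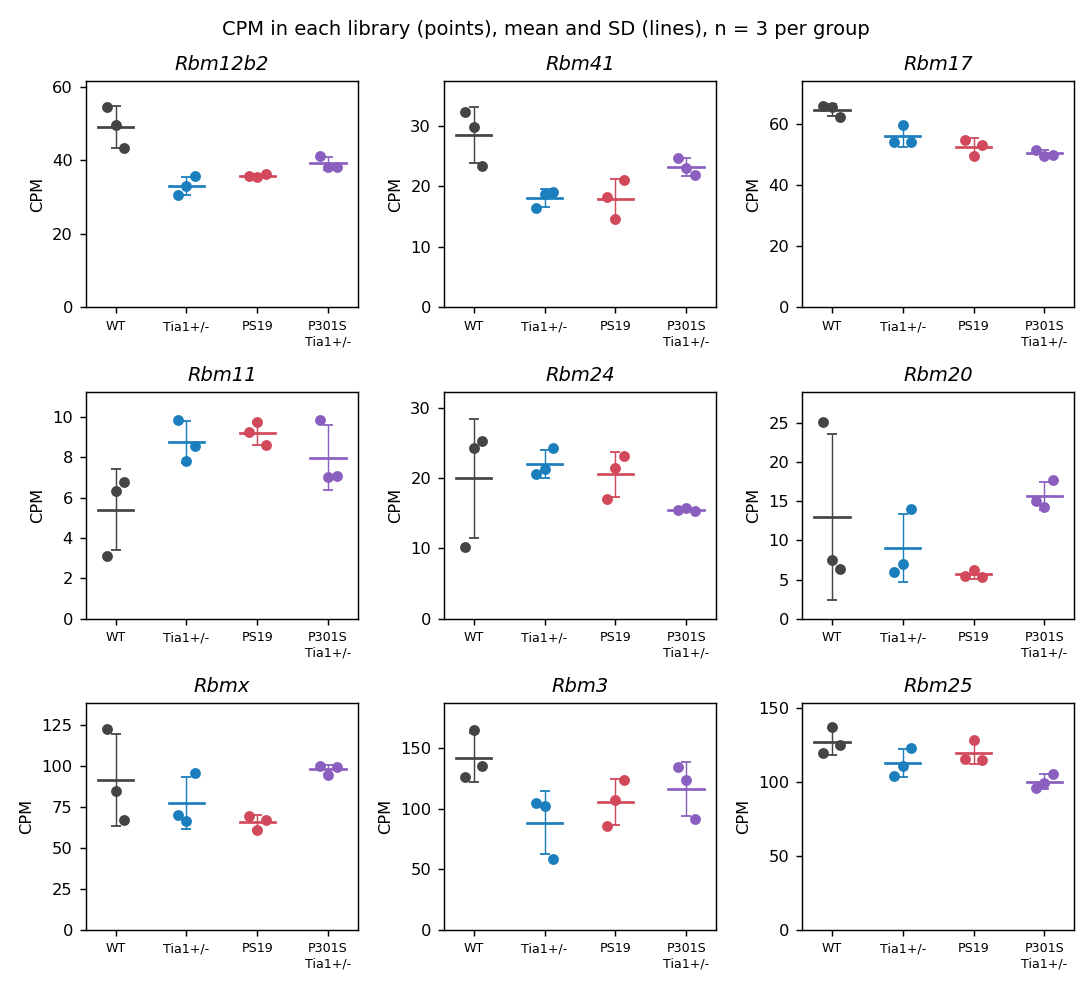
CPM of 9 Rbm genes in each of the 12 libraries (points), with the group mean (horizontal line) and SD over 3 mice (vertical line), and axes starting at 0. Rbm12b2, Rbm41 and Rbm17 are highest in WT, Rbm11 is lowest in WT, and Rbm20 and Rbmx separate PS19 from P301S Tia1+/- while WT replicate 1 is above both.

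Regulators of splice site choice were spread widely, with log2 fold changes against WT in PS19 mice that ran from -1.20 for Rbm20 to 0.77 for Rbm11. Rbm20, best known for splicing titin in muscle, was at 25.2, 7.44 and 6.31 CPM in WT, 5.40, 6.24 and 5.30 in PS19, 6, 7.03 and 14.0 in Tia1+/- and 15.1, 14.3 and 17.7 in P301S Tia1+/-. WT replicate 1 was higher than the other 11 libraries, and P301S Tia1+/- was above PS19 and Tia1+/-. The difference between P301S Tia1+/- and PS19 was 1.48 ± 0.48 on the log2 scale (adjusted p = 0.156, edgeR with all 12 libraries), and when only the 6 libraries of these groups were fitted the adjusted p was 0.00016. That smaller fit called 20.1% of all genes and 3 members (7.32%), so a low adjusted p there was shared by much of the table. Against WT the value of -1.20 for PS19 rested on WT replicate 1 and was -0.28 without it.

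The nuclear splicing protein gene Rbmx, on the X chromosome, was at 123, 84.6 and 67.2 CPM in WT, 69.3, 60.8 and 67.0 in PS19, 70.0, 66.4 and 95.7 in Tia1+/- and 99.9, 94.7 and 99.5 in P301S Tia1+/-. The P301S Tia1+/- libraries were above every PS19 library by 0.58 ± 0.20 (adjusted p = 0.166 by edgeR, and 0.000751 with only these 6 libraries). Its autosomal copy Rbmxl1 was at 52.3 to 62.9 CPM in WT, 50.6 to 53.8 in PS19, 46.6 to 49.6 in Tia1+/- and 46.0 to 52.5 in P301S Tia1+/-, and did not share the order of Rbmx. The 2 genes share 18 stretches of 50 bases, which is 0.589% and 1.09% of those in each.

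Rbm24, another regulator of muscle splicing, gave the reverse order. It had 10.2, 24.3 and 25.3 CPM in WT, 16.9, 21.5 and 23.1 in PS19, 20.5, 21.3 and 24.2 in Tia1+/- and 15.5, 15.7 and 15.3 in P301S Tia1+/-. The P301S Tia1+/- libraries were below PS19 and Tia1+/- without overlap (log2 fold changes -0.40 ± 0.27 and -0.51 ± 0.27, adjusted p = 0.419 and 0.378 by edgeR), and WT replicate 1 was lower still.

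The paralogues Rbm4 and Rbm4b, neighbours on chromosome 19, both act in exon choice. Rbm4b was at 36.4 to 52.1 CPM in WT, 29.1 to 34.9 in Tia1+/- and 31.7 to 34.9 in PS19, with both of the latter below WT (log2 fold changes -0.43 ± 0.13 and -0.39 ± 0.13, adjusted p = 0.119 and 0.211 by edgeR), or -0.27 and -0.24 without WT replicate 1. Rbm4 was at 15.0 to 24.5 CPM in WT and 14.1 to 15.5 in P301S Tia1+/-, which overlapped (-0.44 ± 0.18, edgeR adjusted p = 0.227), with -0.27 when WT replicate 2 was left out. Rbm4 and the readthrough gene Rbm14-rbm4 share 2990 exon bases on the same strand, which is 60.5% and 51.7% of those in each. How reads there were assigned is not given in the sources used here.

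All 5 tested X-linked members, Rbm3, Rbm10, Rbmx, Rbmx2 and Rbm41, were below 0 in PS19 and in Tia1+/- mice against WT, and above 0 in P301S Tia1+/- mice against PS19 and against Tia1+/-. Their medians were -0.43, -0.28, 0.35 and 0.36 in these 4 comparisons, beside -0.17, -0.17, -0.026 and 0.016 for the 37 other members. In P301S Tia1+/- mice against WT, 2 of the 5 were below 0 and the median was 0.028, beside -0.20 for the others. The comparisons of Tia1+/- with WT, P301S Tia1+/- with PS19 and P301S Tia1+/- with WT cross the difference in Xist and Y-linked genes. All X-linked genes were not counted, so a pattern of the X and one of these members cannot be told apart. WT replicate 1, with the most bulb markers, was the highest library for Rbm10 (68.0 CPM), Rbmx (123) and Rbm41 (32.3), but not for Rbm3 and Rbmx2. Rbm41, whose motif resembles one in a U11/U12 protein, was at 32.3, 29.9 and 23.3 CPM in WT, 18.2, 14.6 and 21.1 in PS19, 16.4, 18.7 and 19.1 in Tia1+/- and 24.8, 23.0 and 21.8 in P301S Tia1+/-. WT lay above PS19 and Tia1+/- and overlapped P301S Tia1+/-, which in turn lay above PS19 and Tia1+/-. The log2 fold change was -0.66 ± 0.15 in PS19 and -0.66 ± 0.15 in Tia1+/- (edgeR adjusted p = 0.157 and 0.0696).

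Rbm3, an RNA-binding protein raised by cooling and known for protecting synapses, was at 126, 165 and 135 CPM in WT, 85.9, 107 and 124 in PS19, 105, 102 and 58.4 in Tia1+/- and 134, 123 and 91.7 in P301S Tia1+/-. PS19 and Tia1+/- were below WT in every library, and the lowest value was in Tia1+/- replicate 3. The log2 fold changes were -0.43 ± 0.23 and -0.68 ± 0.23 (adjusted p = 0.372 and 0.144 by edgeR), the latter -0.45 when Tia1+/- replicate 3 was left out. Rbmx2, a spliceosome subunit, was at 5.52 to 6.57 CPM in Tia1+/- and 7.20 to 8.99 in P301S Tia1+/-, without overlap (0.44 ± 0.16, adjusted p = 0.253). For Rbm10, a repressor of exon inclusion, no comparison reached an unadjusted p under 0.05, and its values were 50.6 to 68.0 CPM in WT and 46.7 to 54.4 in PS19.

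Members that serve RNA decay were below 0 against WT in all 3 groups. These are Rbm7, a subunit of the NEXT adaptor of the nuclear exosome, and Rbm26 and Rbm27, which work with the PAXT adaptor, and their log2 fold changes in PS19 ran from -0.30 to -0.24, where Rbm7 had -0.12 without WT replicate 1. The m6A genes Rbm15 and Rbm15b had log2 fold changes of -0.35 and -0.062 in PS19 mice, with an unadjusted p of 0.05 or more in all 6 comparisons, and Rbm15 was at -0.086 without WT replicate 1. In ribosome synthesis, Rbm19, Rbm28 and Rbm34 lay between -0.12 and 0.0031 in PS19. Rbm34 was at 20.3 to 26.7 CPM in P301S Tia1+/-, below PS19 at 30.3 to 30.8 and Tia1+/- at 28.2 to 30.4 (log2 fold changes -0.34 ± 0.13 and -0.30 ± 0.13, edgeR adjusted p = 0.208 and 0.311).

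The rarer members varied most. Rbm46 was at 0.966, 0.723 and 0.580 CPM in Tia1+/- and 1.76, 1.98 and 1.55 in P301S Tia1+/-, without overlap (log2 fold change 1.22 ± 0.37, adjusted p = 0.212 by edgeR), and WT ranged from 1.06 to 2.96. Rbm47 had 0.138 to 1.90 CPM over the 12 libraries with no group apart, and Rbm38 had 0.468 to 1.22. Of the Rbms genes, single-strand nucleic acid binding proteins first found with the Myc gene, Rbms3 was at 41.4 CPM in Tia1+/- replicate 3 and 17.7 to 26.2 in the other libraries, and its difference of Tia1+/- from WT was 0.32 with that library and -0.19 without it. Rbms1 was lower in P301S Tia1+/- (8.24 to 11.3 CPM) than in Tia1+/- (12.2 to 13.7), with a log2 fold change of -0.37 ± 0.17 (adjusted p = 0.335 by edgeR).

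**Figure D4:**
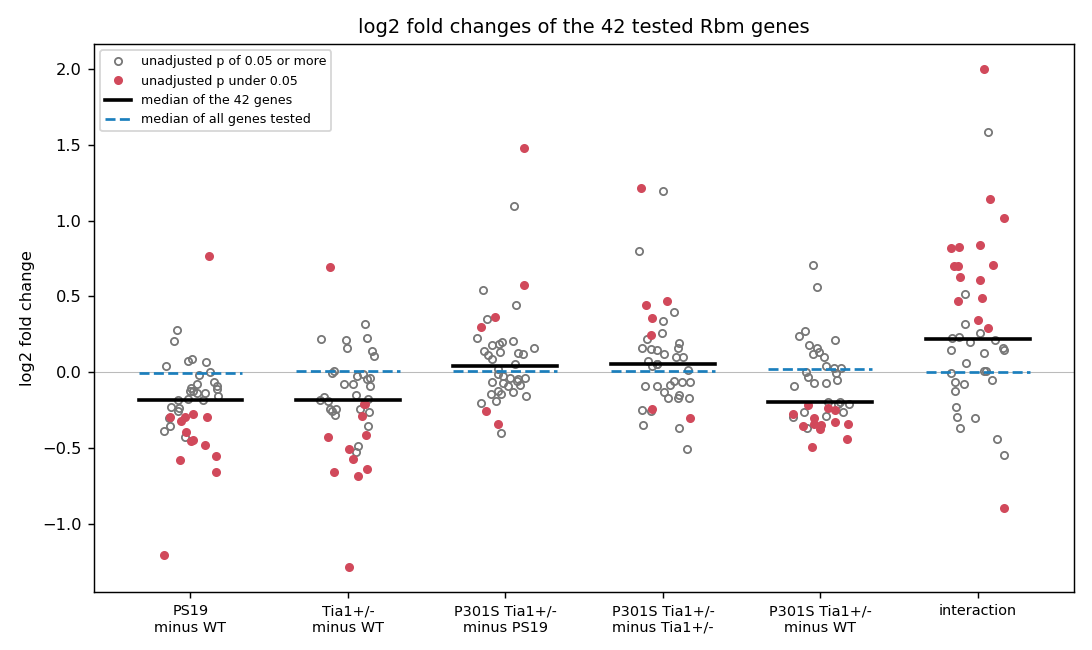
log2 fold change of each of the 42 tested Rbm genes (points) in 6 comparisons, with filled points for an unadjusted edgeR p under 0.05, a solid line at the family's median and a dashed line at the median of all genes tested; the interaction is the P301S effect in Tia1+/- mice minus that in mice with 2 intact alleles. The family's median is -0.18, -0.19 and -0.19 in the 3 comparisons with WT, 0.039 and 0.051 in the 2 among the other groups, and 0.22 in the interaction.

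Heterozygosity for Tia1 on the P301S background was the second question. P301S Tia1+/- mice against PS19 gave 20 of the 42 genes below 0 and 22 above, with a median of 0.039 beside 0.0097 over all genes. edgeR called 0 members and 0.24% of all genes, while DESeq2 called 1 member, Rbm20 (2.38%), and 5.28% of all genes. At an unadjusted p under 0.05, 2 members (4.76%) were lower and 4 (9.52%) were higher, against 7.62% and 11.7% of all genes. The 6 genes were Rbm25 and Rbm34 below 0, and Rbm8a, Rbm20, Rbm41 and Rbmx above 0. Without WT replicate 1 and Tia1+/- replicate 3, which belong to neither group but enter the estimate of the spread, edgeR called 5 members (12.2%), below the 22.9% of all genes it then called.

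P301S tau on the Tia1+/- background, P301S Tia1+/- against Tia1+/-, gave 24 of 42 genes above 0 and a median of 0.051, beside 0.0064 over all genes. edgeR called 0 members and 0% of all genes, and DESeq2 also called 0 members, with 2.53% of all genes. At an unadjusted p under 0.05, 2 members (4.76%) were lower and 5 (11.9%) were higher, against 6.66% and 8.92%. Without Tia1+/- replicate 3 and WT replicate 1, edgeR called 7 members, Rbm12, Rbm12b2, Rbm20, Rbm24, Rbm46, Rbms2 and Rbmx (17.1%), below the 23.4% of all genes then called.

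The interaction asked whether the effect of P301S tau differed between Tia1 genotypes. For 30 of 42 members it was above 0, with a median of 0.22 beside 0.0049 over all genes. edgeR called 0 members and 0.00648% of all genes, with the lowest adjusted p at 0.0608 for Rbm12b2 (0.70 ± 0.13), followed by Rbm41 (1.02 ± 0.21, adjusted p = 0.0654) and Rbm12 (0.84 ± 0.22, adjusted p = 0.0783). At an unadjusted p under 0.05, 15 members (35.7%) were above 0 and 1 (2.38%) was below, against 13.6% and 9.28% of all genes, and DESeq2 called 5 members (11.9%) and 7.63% of all genes. The member below 0 was Rbm11 (-0.90 ± 0.36, adjusted p = 0.174). edgeR called 6 members without WT replicate 3, 1 without WT replicate 1 and 2 without Tia1+/- replicate 3, where 6.59%, 1.55% and 2.6% of all genes were called. With the last 2 libraries left out together it called 7 members (17.1%) and 13.5% of all genes. The 12 olfactory bulb markers had a median interaction of 8.92. With their level as a covariate, the members' median in the interaction was -0.10 and 26 of 42 lay below 0. In that fit 5 members had an unadjusted p under 0.05 by edgeR. Bulb markers were high in all P301S Tia1+/- libraries, so bulb level and genotype cannot be told apart there.

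A few members followed the olfactory bulb markers, at a share near that of all genes tested. In the 4 libraries with a summed bulb marker level over 500 CPM (WT replicate 1 and the 3 P301S Tia1+/- libraries), 3 members lay above all 8 other libraries, Rbm20, Rbms2 and Rbm10, and 2 lay below them, Rbm24 and Rbm34. That is 7.14% and 4.76% of the members, near the 6.87% and 3.56% of all genes tested, so these counts do not set the family apart. Rbm20 was at 14.3 to 25.2 CPM in these 4 libraries and 5.30 to 14.0 in the 8 others, and Rbm24 at 10.2 to 15.7 against 16.9 to 25.3. Rbm17, by contrast, was at 66.0 CPM in WT replicate 1 and at 49.7 to 51.8 in the P301S Tia1+/- libraries.

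With the bulb marker level as a covariate, the difference of P301S Tia1+/- from PS19 was -0.87 for Rbm20 and -0.37 for Rbmx, the opposite sign, and the family's median against WT was -0.039 in PS19, -0.054 in Tia1+/- and -0.26 in P301S Tia1+/-. All P301S Tia1+/- libraries had high and all PS19 libraries low bulb markers, so this covariate and the genotype cannot be told apart there. Rbm17 in P301S Tia1+/- against WT was -0.35 (adjusted p = 0.023 by edgeR) and Rbm12b2 in Tia1+/- against WT -0.39 (adjusted p = 0.0321) with that covariate. The first comparison then had 8 members called (19%) and 9.54% of all genes. In the second, 3 members (7.14%) and 7.57% of all genes were called, so low adjusted p-values were shared by many other genes.

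**Figure D5:**
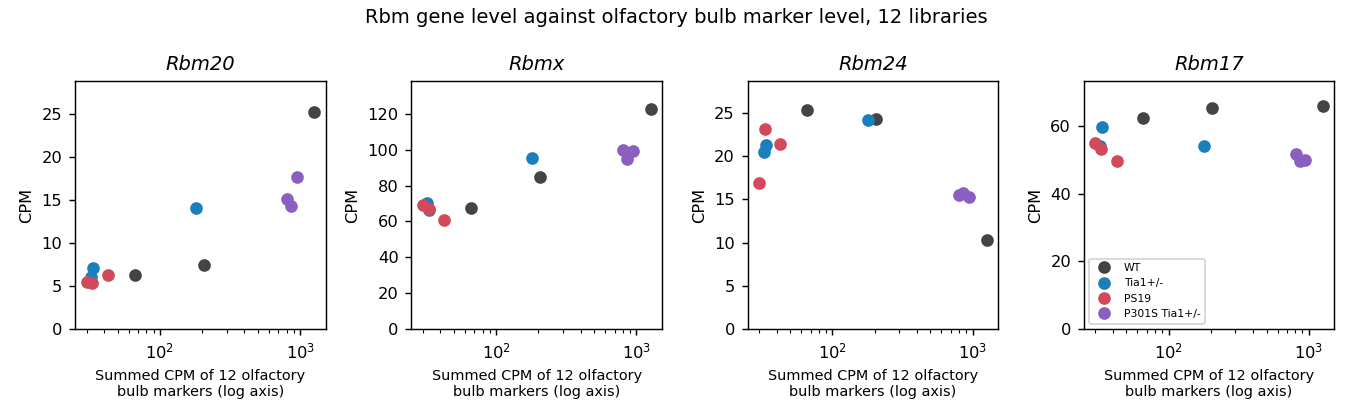
CPM of Rbm20, Rbmx, Rbm24 and Rbm17 (y axes from 0) against the summed CPM of 12 olfactory bulb markers (log axis) in the 12 libraries, coloured by group. Rbm20 is 14.3 to 25.2 CPM in the 4 libraries over 500 CPM of bulb markers and Rbm24 is 10.2 to 15.7 there, while Rbm17 is 66.0 CPM in WT replicate 1 and at most 51.8 in the P301S Tia1+/- libraries.

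Partners of the Rbm proteins that carry other names were counted for comparison, in 9 lists with 63 tested genes (the exon junction complex, m6A writers, U2 and branch point factors, the catalytic spliceosome, U1 and U11/U12 particles, exosome adaptors, paraspeckles and the cold-inducible Cirbp). Below 0 against WT were 56 of the 63 in PS19, 49 in Tia1+/- and 50 in P301S Tia1+/- mice, with medians of -0.16, -0.15 and -0.19. edgeR called 0 in PS19. There 19 were lower and 0 higher at an unadjusted p under 0.05, against 16 lower and 1 higher in Tia1+/- and 24 lower and 1 higher in P301S Tia1+/-, where all genes gave 9.73% and 6.56%, 10.5% and 8.63%, and 9.46% and 8.57%. The call in each of the other comparisons with WT was Ythdc1, a nuclear reader of m6A, at 154, 126 and 112 CPM in WT, 95.1, 94.5 and 96.4 in PS19, 86.0, 86.5 and 94.2 in Tia1+/- and 92.1, 86.3 and 84.6 in P301S Tia1+/-. Ythdc1 thus fell in Tia1+/- mice by 0.55 ± 0.11 (adjusted p = 0.0446) and in P301S Tia1+/- mice by 0.57 ± 0.11 on the log2 scale (adjusted p = 0.0331).

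The partner of Rbm8a in the exon junction complex, Magoh, was lower than WT without overlap in PS19, Tia1+/- and P301S Tia1+/- mice (log2 fold changes -0.56, -0.57 and -0.50, with edgeR adjusted p = 0.159, 0.0765 and 0.0862). Sfpq, the paraspeckle protein gene, gave -0.57, -0.53 and -0.56, and Luc7l3, a U1 partner like Rbm25, gave -0.34, -0.33 and -0.39. Both overlapped WT in Tia1+/-, where replicate 3 was at 138 and 182 CPM, beside 130 and 175 in WT replicate 3. Both were highest in WT replicate 1, at 208 and 231 CPM. The other cold-inducible gene, Cirbp, did not follow Rbm3, with 57.0 to 65.1 CPM in WT, 61.4 to 62.8 in PS19, 58.2 to 65.9 in Tia1+/- and 72.9 to 89.4 in P301S Tia1+/-. Its P301S Tia1+/- libraries were above all others, by 0.40 ± 0.09 over PS19 (edgeR adjusted p = 0.0914). Bulb markers were high in the P301S Tia1+/- libraries and highest in WT replicate 1, where Cirbp was lowest at 57.0 CPM. The part of tissue makeup in this was not tested.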

How the data were processed

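Cortex RNA of 12 mice was sequenced from stranded total RNA libraries. The authors aligned reads to mm10 with Bowtie and TopHat (2.0.6 per the labels, another version in the study's methods) and counted them with featureCounts. The deposited values are raw counts per gene symbol, 11978962 to 19146484 per library. The annotation and the strand and multi-mapping settings are not given in the sources used here. Titles and genotype entries disagree on which heterozygous group carries the transgene. Titles were followed because the table columns carry them, and the files do not settle which is right.

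Genes were kept by filterByExpr, scaled by TMM and compared by edgeR 4.0.16 (quasi-likelihood, R 4.3.3) with 1 mean per group over all 12 libraries, Benjamini-Hochberg adjustment in each comparison and a threshold of 0.05. Scripts were tested on simulated data. Alternatives were DESeq2 1.42.0 (the study's tool), its size factors, other count filters, the replicate block, 2 groups only, olfactory bulb level (mean log2 of 12 markers) as covariate and each library left out. GC and length offsets and the removal of 2 libraries were chosen after seeing the data. Members, roles and lists were chosen with earlier results of these data known. Named were members called, the 3 with the smallest p and the 2 farthest against the family in each comparison, Rbm11 and Rbm17, the 4 highest and 4 lowest, X- and Y-linked members with their copies, and near-identical pairs. Rbm7, Rbm22, Rbm26, Rbm27, Rbm45 and the m6A and ribosome genes were added after their values were seen. Positions came from GENCODE M21 (GRCm38), which held all 48 members.

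Pairing by replicate number was checked by correlating residuals of same-numbered libraries. Of 18 pairs, 7 were above 0.1, among them all 3 of Tia1+/- with P301S Tia1+/- (0.116, 0.155 and 0.248), for which a blocked fit of those 6 libraries was added. It called 0 members and 0.964% of all genes, and the fit of the same libraries without the block called 0 members and 2.22% of all genes. Replicates differed beyond counting noise (chi-square per degree of freedom of 6.61 or more).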

Additional observations from a re-analysis of the deposited data

How the results depend on the processing

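Members called by edgeR at an adjusted p under 0.05 numbered 0 in PS19 minus WT, 1 in Tia1+/- minus WT, 0 in P301S Tia1+/- minus PS19, 0 in P301S Tia1+/- minus Tia1+/-, 1 in P301S Tia1+/- minus WT and 0 in the interaction. DESeq2's test called 5, 4, 1, 0, 3 and 5, beside 2.77%, 6.59%, 5.28%, 2.53%, 6.98% and 7.63% of all genes. Without the count filter P301S Tia1+/- minus WT had 0. With the replicate block Tia1+/- minus WT and P301S Tia1+/- minus WT had 0 each, and the block changed no other count of members called. With only the 2 groups' libraries these 2 had 0 and P301S Tia1+/- minus PS19 had 3 (7.32%, beside 20.1% of all genes). With the bulb level as covariate, Tia1+/- minus WT had 3, P301S Tia1+/- minus Tia1+/- had 1, P301S Tia1+/- minus WT had 8 and the interaction had 1, which is 7.14%, 2.38%, 19% and 2.38% of members beside 7.57%, 6.84%, 9.54% and 6.56% of all genes. Without WT replicate 1 and Tia1+/- replicate 3 the counts were 0, 2, 5, 7, 11 and 7, of 41 members tested, beside 0.476%, 1.72%, 22.9%, 23.4%, 25.8% and 13.5% of all genes, so the larger counts lay near or below the share of all genes except in the interaction (17.1%).

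Leaving out 1 library at a time, the counts ranged from 0 to 5 in Tia1+/- minus WT, 0 to 6 in P301S Tia1+/- minus WT and 0 to 6 in the interaction, and stayed at 0 in the rest. The highest counts came without WT replicate 3, WT replicate 1 and WT replicate 3, in that order. They were 11.9%, 14.3% and 14.3% of members, beside 3.16%, 10.5% and 6.59% of all genes. The members' median ranged from -0.22 to -0.11 in PS19 minus WT, -0.22 to -0.089 in Tia1+/- minus WT and -0.22 to -0.073 in P301S Tia1+/- minus WT, and it was -0.11 in the last without WT replicate 1 and Tia1+/- replicate 3. With the bulb covariate the median was -0.039 in PS19 minus WT, -0.054 in Tia1+/- minus WT, -0.19 in P301S Tia1+/- minus PS19, -0.14 in P301S Tia1+/- minus Tia1+/- and -0.10 in the interaction. With GC and length offsets it was -0.056 in P301S Tia1+/- minus Tia1+/- and -0.023 in P301S Tia1+/- minus PS19, where the median of all genes was -0.066 in each, so relative to all genes the members stayed above 0.

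The sign of single members turned with the bulb covariate for Rbm11 in P301S Tia1+/- minus PS19 (0.60), P301S Tia1+/- minus Tia1+/- (0.55) and the interaction (0.28), Rbm24 in the same 3 (0.35, 0.12 and 0.53), Rbm12 in the interaction (-0.13), Rbm12b2 in P301S Tia1+/- minus Tia1+/- (-0.046), Rbm20 and Rbmx in P301S Tia1+/- minus PS19 (-0.87 and -0.37), Rbm43 in PS19 minus WT (-0.066) and Rbm47 in P301S Tia1+/- minus WT (-0.015). Rbms3 in Tia1+/- minus WT was -0.19 without Tia1+/- replicate 3 and -0.24 without that library and WT replicate 1, with a range of -0.19 to 0.54 over single libraries left out. Rbm47 in P301S Tia1+/- minus WT ranged from -0.25 to 1.98. The cause was not tested. Of 573 values of named members under alternatives, 506 kept their direction and their side of the threshold, 38 passed it, 14 no longer passed it and 15 turned sign. Fits without a library rest on 2 mice in that group, and the bulb covariate is high in all P301S Tia1+/- libraries, so the 2 cannot be told apart there.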
